A study of Rattus norvegicus with 6 samples.

Results

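The genes described here are those of glycolysis and of the cellular response to low oxygen, in primary rat brain microvascular endothelial cells (rBMECs) treated with homocysteine (Hcy). They were chosen by gene symbol from a list of 36, and 35 of the 36 were found among the 33566 genes of the deposited table. No gene carried the symbol Gapdh. rBMECs are the cells of the brain's capillary wall whose tight junctions make the blood–brain barrier. They were isolated from SD rats of 18 to 22 days of age (cerebral cortex in the labels, forebrain in the methods), cultured through one passage, and given Hcy or water as the vehicle (Veh) for 24 h, with 3 libraries in each group. The labels give an Hcy dose of 100 μM and also speak of a solution of 50 μM. The labels and methods name no genetic change in either group, and they do not say whether libraries of a group came from separate isolations or cultures, so the p-values measure only the spread between these libraries, which may be technical.

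Glycolysis splits glucose into pyruvate, and lactate dehydrogenase turns pyruvate into lactate. Endothelial cells take much of their ATP from this route although they face oxygenated blood. When oxygen falls, the alpha subunits of the hypoxia-inducible factors (HIF) are no longer hydroxylated by the prolyl hydroxylases of the Egln family. They are then no longer marked for degradation by VHL. HIF raises the transcription of most glycolytic enzymes, of the pyruvate dehydrogenase kinase Pdk1 and of targets such as Bnip3. HIF alpha is regulated mainly as protein, so that its mRNA says little about its activity.

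Libraries held between 14024997 and 16764584 counts. The 14603 genes with at least 10 counts over the 6 libraries were tested with edgeR's quasi-likelihood test, and all 35 genes found passed this minimum. Levels are TMM-normalized CPM (counts scaled to library size), and 3 counts, equal to between 0.178 and 0.215 CPM, were taken as the floor of detection, for counting error only. Veh 3 stood apart from the other libraries. The chi-square per degree of freedom between its counts and those of Veh 1 and Veh 2 was 27.7 and 24.6, against 5.52 to 7.39 in the other pairs within a group.

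The endothelial label was checked against marker genes. Of 12 endothelial markers, 11 were in the table and 10 were above the floor in every library, while the tight junction gene Cldn5 was at 0 counts throughout. Their summed level was 9986 to 10422 CPM in Hcy and 8430 to 9915 CPM in Veh. Of the 10 tested, 7 had a log2 fold change above 0 and 3 below it, with 3 higher and 2 lower at an unadjusted p of 0.05 or less from edgeR. All 5 smooth muscle markers were above the floor in every library, with a sum of 674 to 702 CPM in Hcy and 1120 to 1348 CPM in Veh. Of these, Acta2, Cnn1 and Tagln fell, by -0.64, -1.39 and -0.88 on the log2 scale (edgeR's adjusted p = 0.0248, 0.00177 and 0.000801). Tagln made up most of the sum, with means of 582 and 1071 CPM, while Myh11 and Des had log2 fold changes of -0.04 and 0.55 (adjusted p = 0.981 and 0.705). The summed levels were 4.65 to 7.19 CPM in Hcy and 3.50 to 4.64 CPM in Veh for 7 pericyte markers, and 35.7 to 57.8 CPM and 57.5 to 83.9 CPM for 4 fibroblast markers. Col1a1 made up most of the fibroblast sum, with means of 48.0 CPM in Hcy and 68.9 CPM in Veh (log2 fold change -0.52, edgeR's adjusted p = 0.264). Pdgfra and Lum had log2 fold changes of 0.12 and 0.53 (adjusted p = 0.939 and 0.899). Microglia markers summed to 0.862 to 1.37 CPM in Hcy and 1.47 to 2.01 CPM in Veh. Astrocyte and neuron markers summed to less than 10 CPM in each library, and oligodendrocyte markers to between 10.6 and 12.4 CPM. Aqp4, Slc1a2, Rbfox3, Snap25, Map2, Nefl, Cx3cr1 and P2ry12 had 0 counts. In bulk RNA, fewer cells of a type and less RNA per cell cannot be told apart. The part of smooth muscle RNA, and that of Veh 3, in the results below was not tested, except where values without Veh 3 are given.

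Between Hcy and Veh, 4 of the 35 genes fell and 0 rose (adjusted p of 0.05 or less). These were Egln3, Bnip3, Pfkfb3 and Pkm. They encode a HIF prolyl hydroxylase, a mitophagy receptor, an enzyme that sets the phosphofructokinase activator fructose-2,6-bisphosphate, and pyruvate kinase. Over all genes tested, 2.34% passed by the same rule, with 1.01% lower and 1.32% higher in Hcy. None of the 35 reached the 2-fold change (a log2 fold change of at least 1) that the study also required, a rule that 0.486% of all genes met in either direction and 0.233% met downward, and the count was also 0 with an unadjusted p or with DESeq2. At an unadjusted p of at most 0.05, 8 of the 35 were lower in Hcy and 0 were higher, against 5.95% and 7.44% of all genes. The 8 include Tpi1, whose log2 fold change turned to 0.35 when all genes of the same protein description were summed. The 4 calls did not all hold with fewer libraries. All 4 held without Veh 3, Bnip3 alone held without Veh 1 (adjusted p = 0.0498), and 0 held without Veh 2 or without any one of the 3 Hcy libraries. The share of all genes that passed moved with these counts, at 6.67% without Veh 3, 1.05% without Veh 1, 0.858% without Veh 2 and 0.557% to 0.663% without an Hcy library. The direction of all 4 genes stayed the same in each of these fits. The summed smooth muscle markers given above were lower in every Hcy library, as these 4 genes were.

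**Figure D1:**
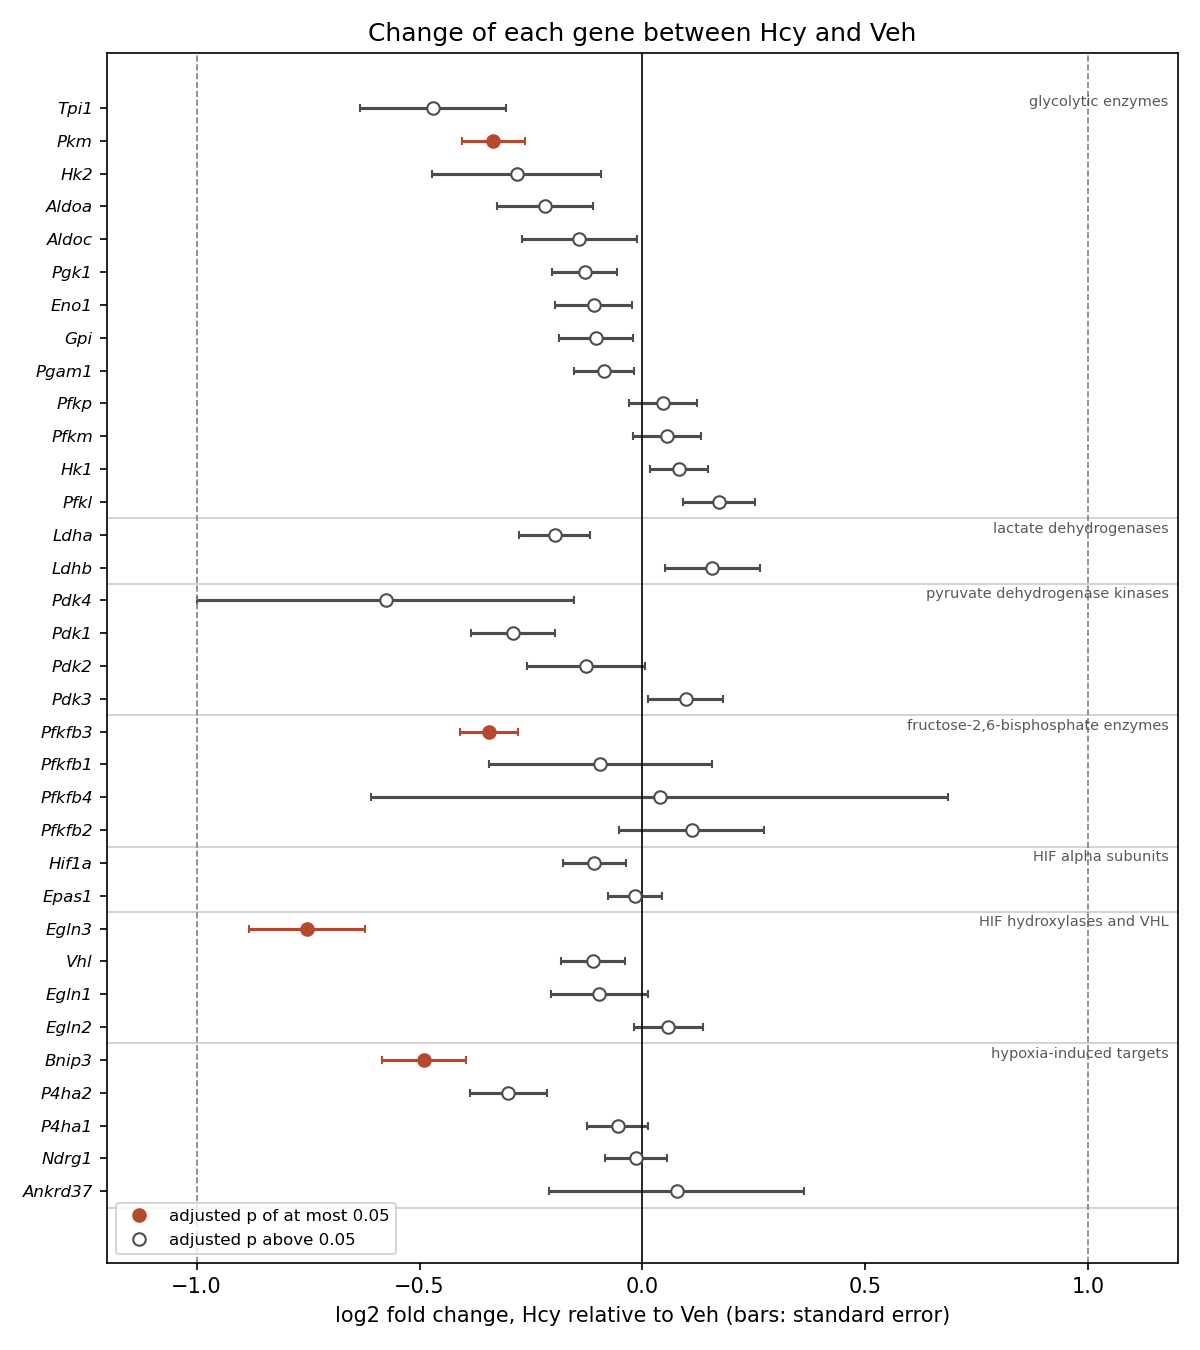
log2 fold change of each gene in Hcy relative to Veh on the x axis, with edgeR's standard error as bars, grouped by role; filled points have an adjusted p of at most 0.05, dashed lines mark a 2-fold change, and Eno2 is left out because it lay at or near the floor. The 4 filled points, Pkm, Pfkfb3, Egln3 and Bnip3, all lie to the left of 0 and inside the dashed lines.

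The fitted log2 fold change was below 0 in 24 of the 35 genes and above 0 in 11, with a median of -0.10, while 53.1% of all genes lay below 0 and their median was -0.02. In 8 of the 35 genes, Tpi1 among them, every Hcy library was lower than every Veh library, and in 1, Pfkl, every Hcy library was higher. Veh 3 was the highest of the 6 libraries in 16 of the 35 genes, and without it the count below 0 was again 24. Such separation was seen downward in 9.27% and upward in 10.8% of all genes. Among the 16 of these genes with a mean of at least 100 CPM, 12 were lower in Hcy, compared with 49.4% of the 1921 genes at that level.

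The promoters of the 4 genes that fell are printed here because HIF binds a short core motif, and a reader can see where that motif is and is not found. Their identifiers in the deposited table are ENSRNOG00000017243 (Bnip3), ENSRNOG00000018911 (Pfkfb3), ENSRNOG00000005053 (Egln3) and ENSRNOG00000011329 (Pkm). Each promoter runs from 250 bases before the transcription start to 50 after it in the RefSeq annotation of GRCr8, and each is shown 5′ to 3′ on the strand of its gene. They lie at chr1:203154913-203155212 on the minus strand for Bnip3, at chr17:71944683-71944982 on the plus strand for Pfkfb3, at chr6:77410966-77411265 on the minus strand for Egln3 and at chr8:68953385-68953684 on the plus strand for Pkm. Capitals mark matches to ACGTG or GCGTG on either strand, so that CACGC is a match to GCGTG on the opposite strand and CACGTG is a match to ACGTG on both strands.
Bnip3: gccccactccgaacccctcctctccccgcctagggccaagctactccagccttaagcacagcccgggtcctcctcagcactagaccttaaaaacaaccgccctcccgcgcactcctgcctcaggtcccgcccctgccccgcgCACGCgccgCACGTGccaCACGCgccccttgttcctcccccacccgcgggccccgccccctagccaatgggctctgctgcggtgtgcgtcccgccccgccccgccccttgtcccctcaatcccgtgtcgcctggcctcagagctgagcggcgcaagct
Pfkfb3: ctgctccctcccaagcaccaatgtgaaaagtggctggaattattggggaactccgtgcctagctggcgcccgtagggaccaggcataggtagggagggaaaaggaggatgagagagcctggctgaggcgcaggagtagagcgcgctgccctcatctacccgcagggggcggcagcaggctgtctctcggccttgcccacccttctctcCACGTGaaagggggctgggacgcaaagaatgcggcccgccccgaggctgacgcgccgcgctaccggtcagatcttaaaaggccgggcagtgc
Egln3: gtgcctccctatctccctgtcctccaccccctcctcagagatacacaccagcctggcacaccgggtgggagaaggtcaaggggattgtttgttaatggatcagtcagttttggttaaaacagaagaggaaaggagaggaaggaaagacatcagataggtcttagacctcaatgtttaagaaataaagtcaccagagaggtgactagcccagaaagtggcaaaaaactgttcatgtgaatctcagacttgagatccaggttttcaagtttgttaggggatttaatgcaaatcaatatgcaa
Pkm: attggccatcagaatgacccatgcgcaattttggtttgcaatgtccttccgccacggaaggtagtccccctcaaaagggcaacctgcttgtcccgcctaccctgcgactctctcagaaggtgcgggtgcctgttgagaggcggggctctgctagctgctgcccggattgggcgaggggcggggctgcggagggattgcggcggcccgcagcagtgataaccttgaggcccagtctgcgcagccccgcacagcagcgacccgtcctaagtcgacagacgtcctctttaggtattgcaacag

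The Bnip3 promoter held 4 matches, a CACGTG that starts 99 bases before the transcription start and a CACGC on each side of it, at 108 and 90 bases. The Pfkfb3 promoter held one CACGTG, which starts 42 bases before the transcription start. No match was found in the windows of Egln3 and Pkm, which says only that these letters are absent there. Among the 35 genes, 33 had a promoter in the table, with 37 entries in all because a few genes had several starts, and 23 of the 37 entries (62.2%) held at least one of the motifs. Over all 33469 promoters of the same length the share was 41.6%, with 19.3% for ACGTG and 29.7% for GCGTG. The motif is short and rich in CG, GC content was not matched between these shares, and a match is not a binding site.

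Along glycolysis, the transcripts for aldolase, phosphoglycerate kinase, enolase and pyruvate kinase were the most abundant of the glycolytic enzymes found by symbol. Per kb of deposited gene length, Veh cells held 829 CPM of the enolase Eno1, 782 of the aldolase Aldoa, 668 of phosphoglycerate kinase Pgk1, 590 of pyruvate kinase Pkm, 479 of phosphoglycerate mutase Pgam1 and 260 of glucose phosphate isomerase Gpi. Hexokinase and phosphofructokinase, which catalyse the early regulated steps, were lower on the same scale, at 79.0 CPM per kb for Hk1, 73.1 for Pfkl, 72.3 for Pfkp and 14.2 for Pfkm. Hk2, the hexokinase that HIF induces, stood at 0.931 CPM per kb, and Eno2, the neuronal enolase, had no library above 4 counts. Over the Veh libraries the range of Eno1 overlapped that of Aldoa, that of Aldoa overlapped Pgk1 and that of Pfkl overlapped Pfkp. Within each Veh library, however, Eno1 was above Aldoa and Aldoa above Pgk1, whereas the order of Pfkl and Pfkp changed between libraries. The lactate dehydrogenase Ldha, which acts after these steps, stood at 582 CPM per kb, and its Veh range overlapped those of Pgk1 and Pkm.

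**Figure D2:**
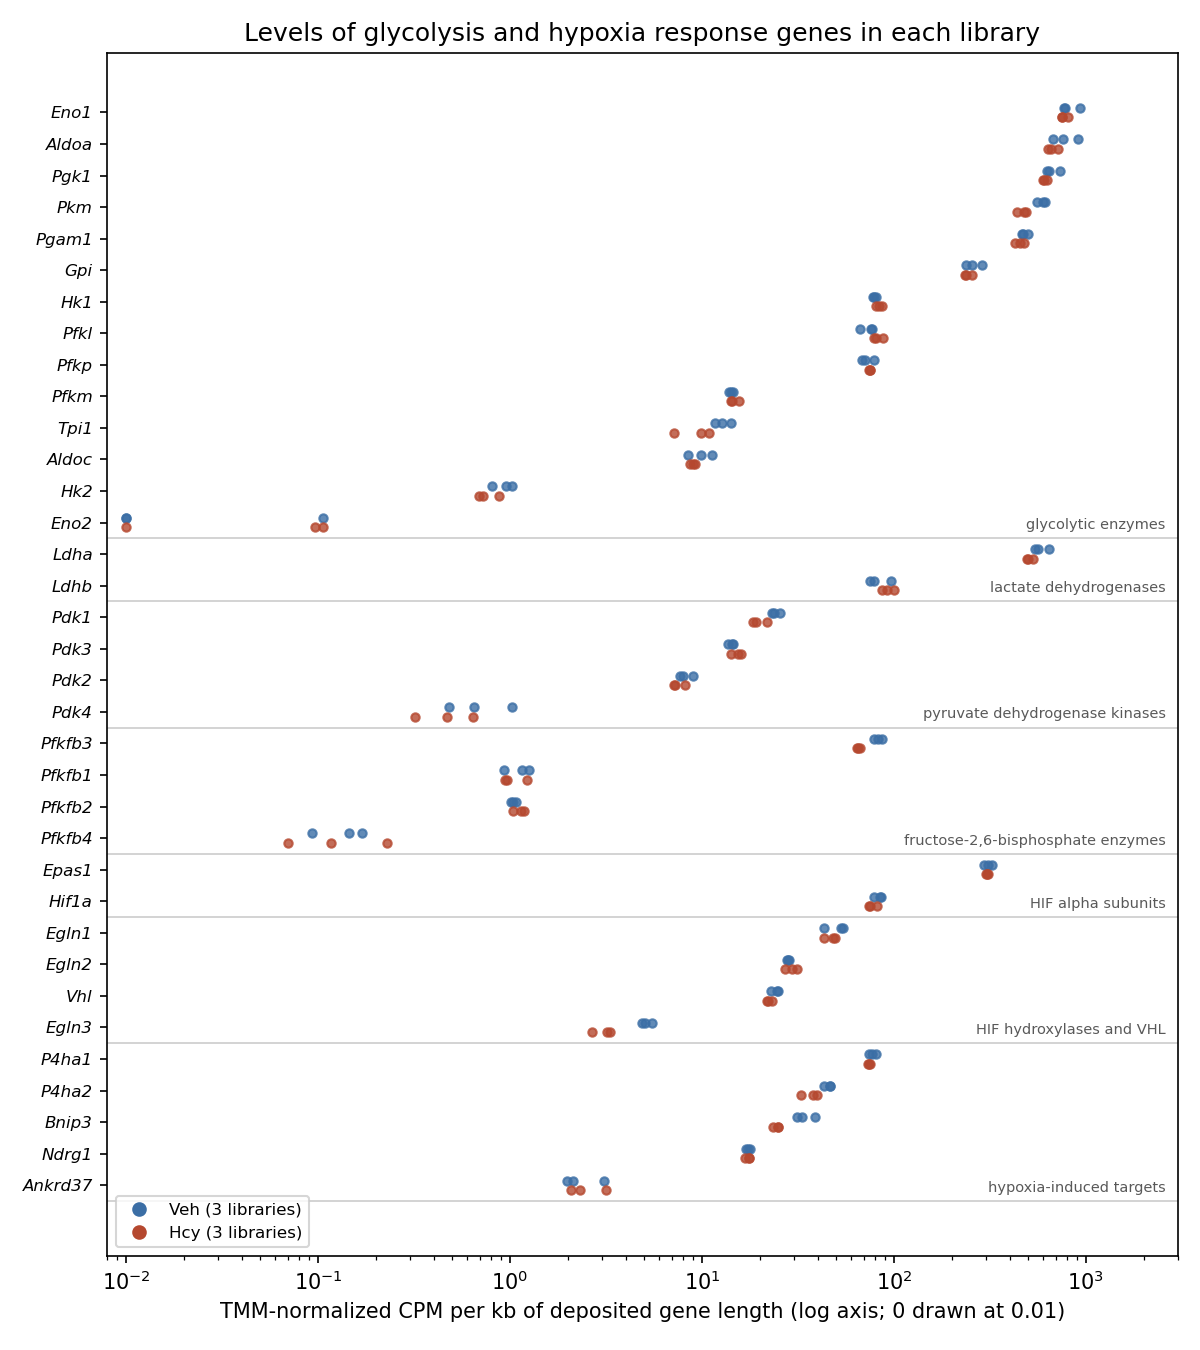
Level of each gene in each library, in TMM-normalized CPM per kb of deposited gene length on a log axis, with Veh and Hcy libraries as blue and red points and genes ordered within their role by the Veh mean. The most abundant isozyme at each step stands well above the others for hexokinase, aldolase and enolase, whereas Pfkl and Pfkp lie side by side.

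Of the 14 glycolytic enzymes measured, 9 had a log2 fold change below 0 and 5 above it, and only Pkm passed the test. Pkm, which makes pyruvate and ATP in the last step, had 932, 1024 and 1048 CPM in Hcy 1, 2 and 3 and 1283, 1194 and 1311 CPM in Veh 1, 2 and 3. All Hcy libraries lay below all Veh libraries, with means of 1001 ± 60.9 and 1263 ± 61.2 CPM (SD, n = 3). The log2 fold change was -0.33 with a standard error of 0.07 (edgeR's adjusted p = 0.0491), a fall of 20.7%, just inside the threshold. With the replicate number as a block, edgeR's adjusted p was 0.0712 and the call was lost. Other genes carry the same protein description as Pkm and are called copies here, although their sequences were not compared. The Pkm gene held 87.5% of the counts of all genes described as the same protein, and with the copies summed the log2 fold change was -0.27 and the call was lost (adjusted p = 0.111).

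The main enzymes of the steps around it did not pass the test. For Aldoa, which splits fructose bisphosphate, the levels were 1155, 1026 and 1065 CPM in Hcy and 1216, 1090 and 1470 CPM in Veh (log2 fold change -0.22, adjusted p = 0.441 from edgeR). For Pgk1, which makes the first ATP of the payoff phase, they were 1066, 1027 and 1008 CPM in Hcy and 1093, 1065 and 1235 CPM in Veh. For Eno1 they were 1522, 1420 and 1415 CPM in Hcy and 1471, 1460 and 1770 CPM in Veh. In all of these genes the groups overlapped and Veh 3 was the highest library. Pgam1 had 825, 787 and 747 CPM in Hcy and 814, 815 and 875 CPM in Veh, and Gpi had 515, 478 and 471 CPM in Hcy and 516, 478 and 579 CPM in Veh. The log2 fold changes of Pgk1, Eno1, Gpi and Pgam1 lay between -0.13 and -0.09, with adjusted p between 0.514 and 0.674 from edgeR. Without Veh 3 the log2 fold changes were nearer to 0, at -0.092 for Aldoa, -0.062 for Pgk1, -0.051 for Pgam1, -0.026 for Gpi and -0.013 for Eno1.

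Hk1 and the phosphofructokinases, which act at the early regulated steps, had log2 fold changes above 0 and did not pass the test. Pfkl, the liver-type phosphofructokinase, had 240, 218 and 222 CPM in Hcy and 209, 184 and 211 CPM in Veh. Its groups did not overlap, and its log2 fold change was 0.17 with a standard error of 0.08 (edgeR's adjusted p = 0.406). Hk1, which traps glucose in the cell, had 224, 216 and 232 CPM in Hcy and 217, 211 and 208 CPM in Veh (log2 fold change 0.08, adjusted p = 0.672). Pfkm and Pfkp, the muscle and platelet types, had log2 fold changes of 0.05 each. Hk2 and Aldoc, a brain-type aldolase, had values of -0.28 and -0.14, with adjusted p of 0.594 and 0.712 from edgeR.

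The triose phosphate step cannot be read from its named gene. Tpi1 had 10.3, 14.2 and 15.6 CPM in Hcy and 18.3, 16.8 and 20.6 CPM in Veh, without overlap (log2 fold change -0.47, edgeR's adjusted p = 0.230). It held 17.2% of the counts of the 4 genes described as triose phosphate isomerase, and their sum gave a log2 fold change of 0.35, in the opposite direction (adjusted p = 0.619). The same holds in part for glyceraldehyde phosphate dehydrogenase. The symbol LOC108351137 is shared by 2 genes of the table, both described as rat GAPDH. The one with the identifier ENSRNOG00000018630 lies on chromosome 4 between Iffo1 and Ncapd2, where the RefSeq annotation of GRCr8 places Gapdh. The other, ENSRNOG00000030963 on chromosome 5, had a log2 fold change of 0.05. The gene on chromosome 4 was found after its values could be seen and is no member by symbol. Per kb it stood at 2851 CPM in Veh, above every glycolytic gene found by symbol, and its counts were 32350, 35132 and 38567 in Hcy and 45511, 42146 and 46018 in Veh, and edgeR gave a log2 fold change of -0.30 (edgeR's adjusted p = 0.104, with 0.0270 from DESeq2 and 0.0160 from edgeR without Veh 3). Summed over the genes with that description, the change was -0.25 (adjusted p = 0.249).

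Lactate dehydrogenase, which regenerates NAD+ for glycolysis, showed opposite values for its subunits. Ldha, the subunit that HIF induces, had 845, 799 and 793 CPM in Hcy and 897, 866 and 1030 CPM in Veh. Ldhb, the heart-type subunit, had 134, 123 and 117 CPM in Hcy and 105, 101 and 129 CPM in Veh. Every Hcy library was below every Veh library for Ldha, whereas the Ldhb groups overlapped. Neither passed the test, with log2 fold changes of -0.20 for Ldha (adjusted p = 0.311) and 0.16 for Ldhb (adjusted p = 0.600). Without Veh 3 they were -0.12 for Ldha and 0.27 for Ldhb (adjusted p = 0.208 and 0.0534 from edgeR).

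**Figure D3:**
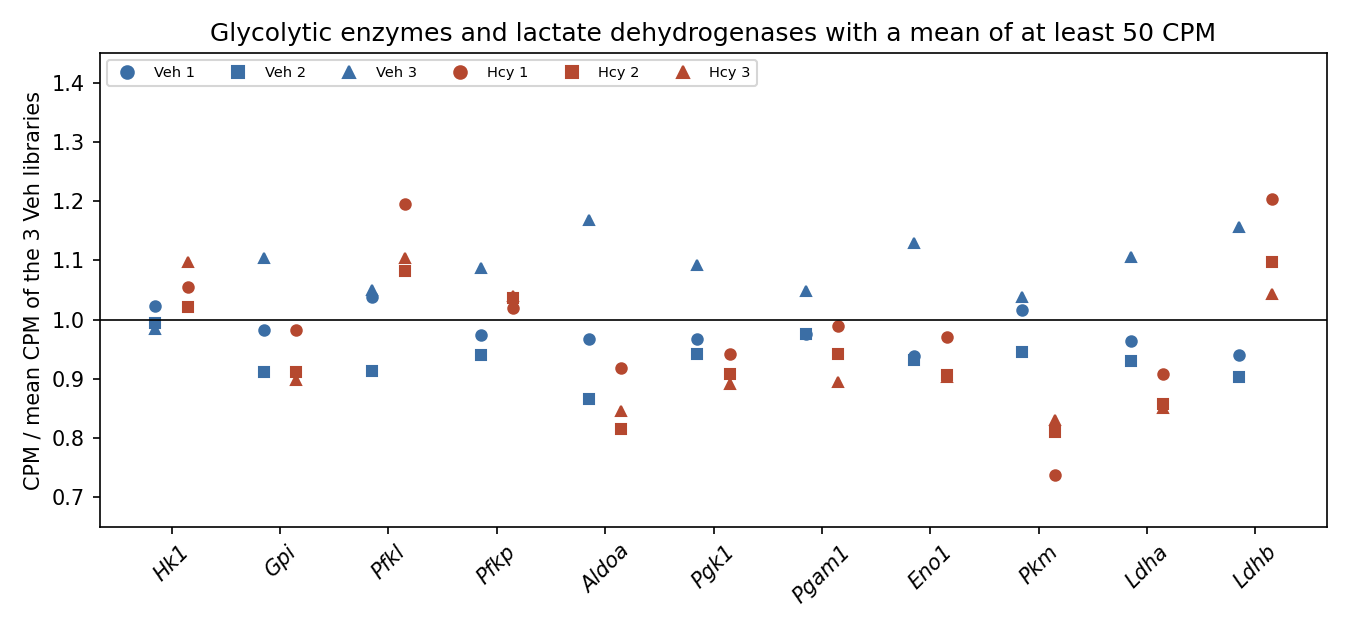
CPM of each glycolytic enzyme and lactate dehydrogenase with a mean of at least 50 CPM, divided by the mean of its Veh libraries, with one symbol per library. Veh 3 (blue triangles) is the highest library in 8 of the 11 genes. All Hcy libraries lie under all Veh libraries for Pkm and Ldha, and above all of them for Pfkl.

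The sum over the 14 glycolytic enzymes and both lactate dehydrogenases was 7700, 7362 and 7364 CPM in Hcy and 8061, 7694 and 9083 CPM in Veh. Hcy 1 lay just above Veh 2, so the groups overlapped. The mean of Hcy differed from that of Veh by -9.71%, and by -5.11% when Veh 3 was left out. Veh 3 was the highest of the 6 libraries in 10 of these 16 genes. No gene described as GAPDH is in this sum. The one on chromosome 4 had 2323, 2359 and 2301 CPM in Hcy and 2701, 2685 and 3185 CPM in Veh. The overlap of the sums therefore holds for the genes found by symbol and not with this gene added.

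Among the bifunctional enzymes that set fructose-2,6-bisphosphate, the strongest activator of phosphofructokinase, only Pfkfb3 was expressed at a high level. Pfkfb3 had 308, 314 and 302 CPM in Hcy and 409, 391 and 373 CPM in Veh. The groups were well apart, with means of 308 ± 6.30 and 391 ± 17.9 CPM (SD, n = 3), and here Veh 3 was the lowest Veh library. The log2 fold change was -0.34 with a standard error of 0.07 (edgeR's adjusted p = 0.0308), a fall of 21.2%. With the replicate number as a block, edgeR's adjusted p was 0.0571 and the call was lost. Pfkfb1 and Pfkfb2 had 1.84 to 5.37 CPM, with log2 fold changes of -0.09 and 0.11, and Pfkfb4, a classical hypoxia target, had 2 to 7 counts a library and a log2 fold change of 0.04. Pfkfb3 thus carried nearly all of the family's summed level, which differed by -20.7% in Hcy, and by -22.5% without Veh 3.

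**Figure D4:**
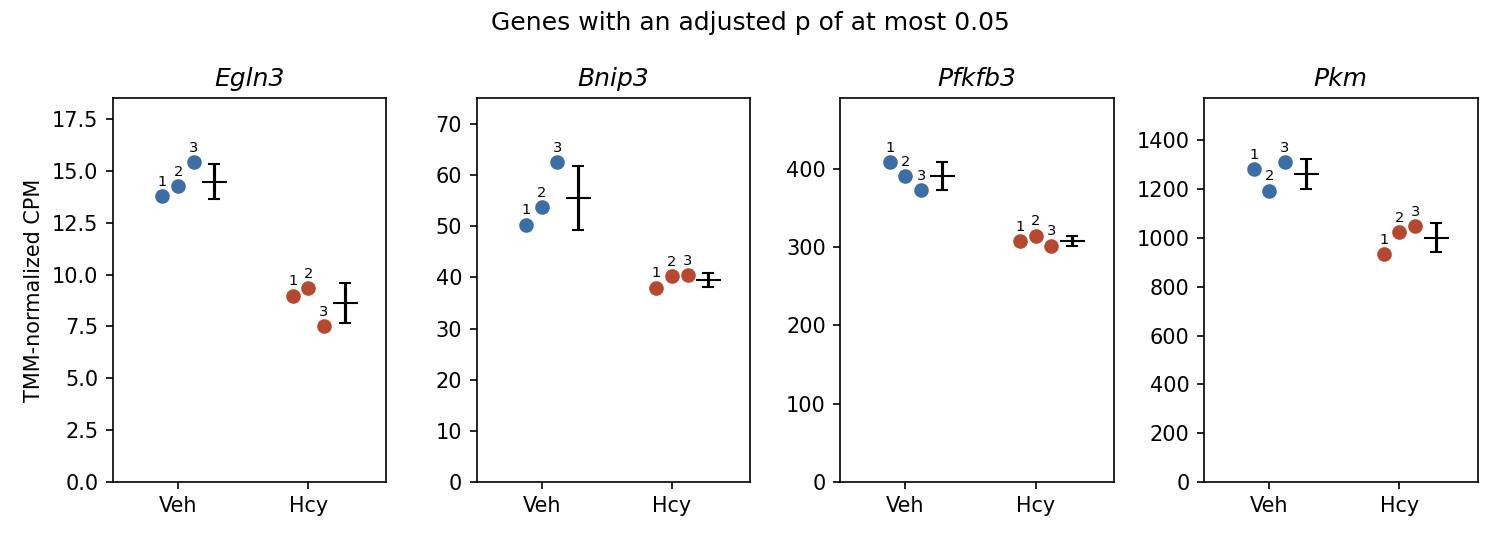
TMM-normalized CPM of Egln3, Bnip3, Pfkfb3 and Pkm in each library, numbered by replicate, with the mean and SD of 3 libraries beside the points. In each panel the 3 Hcy libraries lie below the 3 Veh libraries.

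The pyruvate dehydrogenase kinases, which keep pyruvate out of the mitochondrial citric acid cycle, did not pass the test. Pdk1, the isoform induced by HIF, had 34.5, 29.1 and 30.1 CPM in Hcy and 40.4, 36.6 and 37.6 CPM in Veh. Its groups did not overlap, and its log2 fold change was -0.29 with a standard error of 0.09 (edgeR's adjusted p = 0.193). Pdk2 and Pdk3 had log2 fold changes of -0.13 and 0.10, and Pdk4, the isoform linked to fasting and fatty acid use, had 7 to 27 counts a library and a value of -0.58 with a standard error of 0.42. Pdk3 was above 0 while the other 3 were below it.

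The HIF alpha subunits showed little difference. Epas1, which encodes HIF-2 alpha and is typical of endothelium, had 1492, 1512 and 1480 CPM in Hcy and 1581, 1509 and 1449 CPM in Veh. Hif1a had 295, 324 and 299 CPM in Hcy and 340, 335 and 313 CPM in Veh. The groups overlapped in both. The log2 fold changes were -0.02 for Epas1 and -0.11 for Hif1a, with standard errors of 0.06 and 0.07 and adjusted p of 0.946 and 0.583 from edgeR. Per kb, Veh cells held 309 CPM of Epas1 and 82.7 CPM of Hif1a.

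Among the hydroxylases, Egln3 showed the largest fall of any of the 4 genes that passed. Egln3 encodes PHD3, an oxygen-dependent hydroxylase that is itself a HIF target, and it had 8.98, 9.34 and 7.52 CPM in Hcy and 13.8, 14.3 and 15.4 CPM in Veh. Every Hcy library was far below every Veh library, with means of 8.61 ± 0.962 and 14.5 ± 0.853 CPM (SD, n = 3). The log2 fold change was -0.75 with a standard error of 0.13 (edgeR's adjusted p = 0.0212), a fall of 40.6%, on 125 to 139 counts a library in Hcy and 223 to 232 in Veh. Egln1, the main hydroxylase of HIF-1 alpha, had a log2 fold change of -0.10, and Egln2 had 0.06. Vhl, the ubiquitin ligase subunit that binds hydroxylated HIF, had 63.2 to 66.7 CPM in Hcy and 66.4 to 71.9 CPM in Veh (log2 fold change -0.11, adjusted p = 0.579). Egln2 overlaps Cyp2t1 on the opposite strand, and whether reads were counted by strand is not given in the sources used here.

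Of the 5 other hypoxia-induced targets, Bnip3 fell. Bnip3, a mitochondrial outer membrane protein that directs mitophagy, had 38.0, 40.2 and 40.4 CPM in Hcy and 50.3, 53.8 and 62.6 CPM in Veh. The groups did not overlap, and Veh 3 was the highest library. The means were 39.5 ± 1.35 and 55.6 ± 6.31 CPM (SD, n = 3), with a log2 fold change of -0.49 and a standard error of 0.09 (edgeR's adjusted p = 0.0325), a fall of 28.8%. Without Veh 3 the log2 fold change was -0.40 (adjusted p = 0.00905). P4ha2, a collagen prolyl hydroxylase subunit, was next, with 80.0 to 96.3 CPM in Hcy and 105 to 113 CPM in Veh (log2 fold change -0.30, adjusted p = 0.144 from edgeR).

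The remaining targets did not pass the test. P4ha1, the partner isoform of P4ha2, had 156 to 159 CPM in Hcy and 157 to 172 CPM in Veh. Ndrg1, a stress-responsive gene strongly raised by hypoxia in many cells, had 52.5 to 55.5 CPM in Hcy and 53.5 to 56.2 CPM in Veh. Ankrd37, an ankyrin repeat gene with few reads, had 28, 27 and 46 reads counted in the Hcy libraries and 29, 29 and 39 in the Veh libraries. The groups overlapped in all of these genes, and their log2 fold changes were -0.06, -0.01 and 0.08, with adjusted p of 0.801, 0.961 and 0.950 from edgeR. A p above the threshold does not show that the levels were equal.

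Shares within isozyme families were compared because they do not depend on the scaling of a library. Each share is the level per kb of one isozyme in the sum of its family, and 16 shares were tested with an exact two-sided permutation test, for which 3 against 3 libraries cannot give a p under 0.1. Ldha made up 84.0%, 84.5% and 85.0% of the lactate dehydrogenase level in Hcy and 87.7%, 87.8% and 87.0% in Veh. Means were 84.5% ± 0.508 and 87.5% ± 0.454 (SD, n = 3), a difference of -2.96 percentage points without overlap (exact p = 0.1, adjusted p = 0.267). Leaving out each library in turn gave -3.22 to -2.71 points.

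Among the pyruvate dehydrogenase kinases the share of Pdk1 was lower in Hcy and that of Pdk3 higher. Shares of a family sum to a fixed total, so these are not separate observations, and the level of Pdk3 itself overlapped between groups (log2 fold change 0.10, edgeR's adjusted p = 0.702). The share of Pdk1 was 48.2%, 45.7% and 44.1% in Hcy and 51.1%, 50.2% and 52.1% in Veh. The share of Pdk3 was 35.2%, 35.3% and 35.4% in Hcy and 28.9%, 31.1% and 30.0% in Veh. The mean difference was -5.13 points for Pdk1 and 5.31 points for Pdk3, each without overlap (exact p = 0.1 and adjusted p = 0.267 for each). The share of P4ha1 in the sum with P4ha2 was 66.9% ± 2.15 in Hcy and 63.0% ± 1.4 in Veh, that of Hif1a in the sum with Epas1 was 20.1% ± 0.676 and 21.1% ± 0.291, and that of Egln3 among the hydroxylases was 3.88% ± 0.658 and 6.18% ± 0.444 (SD, n = 3). These groups did not overlap either, with an exact p of 0.1 and an adjusted p of 0.267 for each. The deposited length of Egln1, 669 bases, is short, which raises its level per kb and lowers the share of Egln3. The Egln3 difference was -2.29 points with length scaling and -5.11 points without it. The other 10 shares, among them those of Hk1, Pfkl and Aldoa, overlapped between groups (exact p between 0.2 and 0.9).

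**Figure D5:**
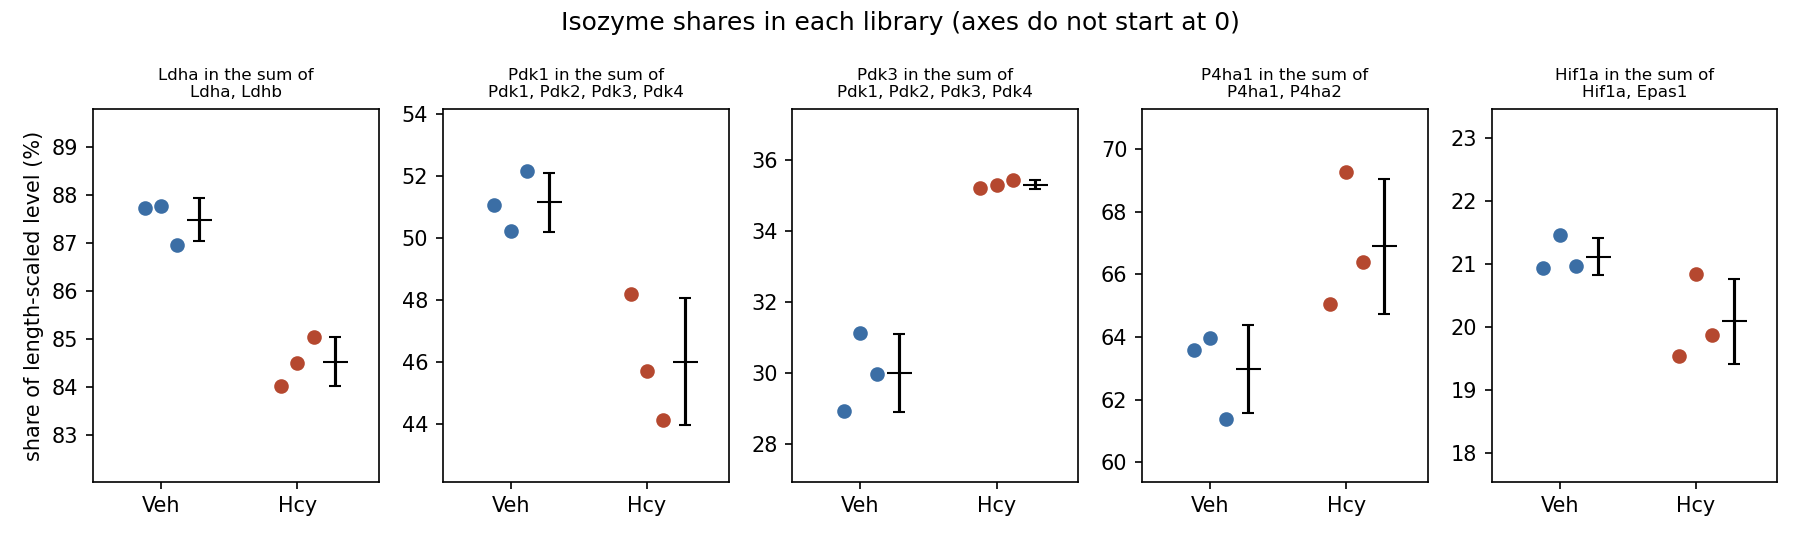
Share of one isozyme in the summed level per kb of its family, in percent on axes that do not start at 0, for each Veh and Hcy library, with the mean and SD of 3 libraries. Ldha, Pdk1 and Hif1a are lower and Pdk3 and P4ha1 higher in Hcy. Only shares whose groups did not overlap are drawn, so the separation in every panel follows from that choice. The share of Egln3, also without overlap, and the shares that overlapped are not drawn.

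Neighbouring genes of the same pathways gave 0 passing genes in either direction by edgeR. These were 19 other genes of glycolysis and glycogen (12 with a log2 fold change below 0 and 7 above), 8 of the pentose phosphate route (7 and 1), 15 of glucose, lactate and pyruvate transport and pyruvate dehydrogenase (8 and 7), 12 other HIF subunits and regulators (10 and 2) and 31 other hypoxia targets (22 and 9). At an unadjusted p of at most 0.05, 11 of these 85 genes were lower and 4 were higher, and over all genes the shares were 5.95% and 7.44%. Of the 85, 59 had a log2 fold change below 0, where 53.1% of all genes lay. DESeq2, which passed 4.14% of all genes, passed 4 of the 85, namely the glucose transporter Slc2a1, the pyruvate carrier subunit Mpc1, the HIF regulator Cited2 and the lipase inhibitor Angptl4, each lower in Hcy. The closest by edgeR was Slc2a1, the main glucose transporter of the barrier, with 536, 470 and 487 CPM in Hcy and 637, 616 and 611 CPM in Veh, without overlap (log2 fold change -0.32, adjusted p = 0.0536). Slc2a3, the neuronal-type glucose transporter, pointed the other way, with 53, 85 and 2 reads in the Hcy libraries and 1, 8 and 1 in the Veh libraries. Its groups overlapped, since Hcy 3 lay below Veh 2 (log2 fold change 3.85, standard error 1.15, adjusted p = 0.156 from edgeR). Slc2a1, Slc2a3, Mpc1, Cited2 and Angptl4 were named after their values were seen.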

How the data were processed

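RNA-seq was done on poly(A) RNA of 3 Hcy and 3 Veh libraries. The submitters' processing notes name fastp, HISAT2 2.2.1, StringTie 2.2.3, featureCounts 2.0.6 and DESeq2 1.42.0 with mRatBN7.2, and the authors deposited raw read counts per gene and library, without normalization. The deposited table names no build for its positions. They reach 282724300 on chromosome 1, beyond the end of that chromosome in mRatBN7.2, so they are not positions of that build. None are printed. A table of the authors' own comparison, with fold changes and p-values, was not used.

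Genes with at least 10 counts over the 6 libraries were kept (14603), scaled by TMM and compared with edgeR 4.0.16 in R 4.3.3 (quasi-likelihood test, condition only, Benjamini-Hochberg over all genes), which was tested on simulated data. Calls followed the study (adjusted p up to 0.05 with a change of 1 or more on the log2 scale, in either direction), and also the p alone. CPM per kb used the deposited gene lengths, and SD is over 3 libraries.

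Genes given by library were by rule those that passed, the most abundant gene of each step, the HIF alpha subunits, Pdk1, Bnip3 and Ankrd37. Ldha, Ldhb, Slc2a1, Slc2a3 and LOC108351137 were added outside this rule. The members and lists were chosen with earlier results of these data known. Alternatives were DESeq2 and its size factors, library totals, no filter, filterByExpr, the replicate number as a block, a prior count of 2, unadjusted p, shares without length scaling and leaving out each library. Summing the gene copies was chosen after seeing the data.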

Additional observations from a re-analysis of the deposited data

How the results depend on the processing

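Of the 4 genes that passed, all 4 also did so with DESeq2, where 4.14% of all genes passed, and with DESeq2's size factors (2.36%). The same 4 passed with library totals (2.37%), without the filter (2.48%) and with filterByExpr (3.2%). With the copies summed, 3 of them passed (2.35%). With an unadjusted p the count was 8. Leaving out each library in turn gave 0 to 4, while the share of all genes that passed ran from 0.557% to 6.67%. The adjusted p then reached 0.109 for Egln3, 0.197 for Pfkfb3, 0.160 for Bnip3 and 0.218 for Pkm, with log2 fold changes of -0.81 to -0.66, -0.38 to -0.31, -0.56 to -0.40 and -0.38 to -0.29. With the replicate block, 2 genes passed, Egln3 (edgeR's adjusted p = 0.0435) and Bnip3 (0.0357), and 2.04% of all genes did. Pfkfb3 (0.0571) and Pkm (0.0712) did not pass in that fit. Libraries of the same number deviated together with a correlation of -0.03 to 0.20, and those of different numbers with -0.22 to 0.18, so the numbers were not taken to pair the libraries. For the other pathway genes the count of 0 became 4 with DESeq2, where 4.14% of all genes passed, and 3 without the filter, where 2.48% did. It became 1 with filterByExpr (3.2% of all genes) and 1 with the replicate block (2.04%). On leaving out a library it was 0 to 8. It was 8 without Veh 3, where 6.67% of all genes passed, and 1 without Hcy 3, where 0.567% did. Not all of these were lower in Hcy. The one gene with the replicate block and the one without Hcy 3 was Slc2a3, which was higher and also passed without the filter, and Pgm2 and Kdr were higher without Veh 3. Kdr is also among the endothelial markers, so its rise is counted in both lists.

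The sign turned for Tpi1 with the copies summed (0.35) and for Pfkfb4 with the replicate block (-0.015). Leaving out a library gave log2 fold changes of -0.50 to 0.33 for Pfkfb4, -0.048 to 0.016 for Epas1, -0.12 to 0.30 for Ankrd37 and -0.035 to 0.010 for Ndrg1, and share differences of -0.63 to 0.068 points for Pfkm, -0.49 to 1.03 for Pdk2 and -2.60 to 0.19 for Egln1. The Pdk2 difference was -0.11 without length scaling. The cause was not tested. Eno2 and Pfkfb4 had at most 4 and 7 counts a library, too few for a small change to be detectable.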
